A study of Homo sapiens with 8 samples.

Results

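Retinoic acid is a vitamin A derivative that enters the nucleus and binds retinoic acid receptors (RARs), which sit on DNA in pairs with retinoid X receptors (RXRs) and switch target genes on. Inside the cell it is carried by the binding proteins CRABP1 and CRABP2 and is destroyed by the CYP26 hydroxylases, while DHRS3 turns its precursor retinal back into retinol. Several of these genes, RARB, CYP26A1, DHRS3 and CRABP2 among them, are themselves induced by retinoic acid, and retinoids drive differentiation of neuroblastoma (NB) cells and are used in NB therapy. The genes examined were 9 members of this system, chosen by name from the 60676 Ensembl genes in the count table: the receptors RARA, RARB, RARG and RXRA, the hydroxylases CYP26A1 and CYP26B1, the retinal reductase DHRS3, and the carriers CRABP1 and CRABP2.

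The cells were IGR-N91, a human NB line, grown as aggregates in hanging drops, and the study asked how secretions of embryonic ganglia change their transcriptome. There were 4 groups of 2 libraries each. Control aggregates were kept in culture medium that had held no tissue. The other groups received medium conditioned by chick sympathetic ganglia of embryonic day 8 (E8-cSGcm, written E8-cGScm in the sample labels), chick dorsal root ganglia of embryonic day 8 (E8-cDRGcm) or mouse sympathetic ganglia of stage E15.5 (E15.5-mSGcm, labelled E15.5-mGScm). All media contained fetal bovine serum. The labels give 20 h of exposure and the design text of the series gives 24 h. All libraries come from 1 cell line, and no source used here says whether the 2 libraries of a group came from separate cultures, so that p-values measure the spread between these libraries, which may be technical. Because the chick and mouse media differ in species, stage and, for E8-cDRGcm, ganglion, those factors cannot be told apart in the comparison of E15.5-mSGcm with the chick media.

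Library totals ranged from 7930765 to 15060744 reads, with the 2 E15.5-mSGcm libraries the smallest. Levels are given as normalized CPM, the usual depth-scaled read count, with library sizes adjusted by the TMM method of edgeR. The floor of detection, taken as 3 reads, lay between 0.199 and 0.378 CPM and covers counting error only. The noradrenergic markers PHOX2A, HAND2, GATA3 and ISL1 each had at least 76.1 CPM in every library, whereas SOX10, CDH5 and CD3E had no read in any, and the summed levels of the glial, endothelial and immune markers were at most 1.04, 1.07 and 0.197 CPM. The summed level of the 7 noradrenergic markers moved with the media, from 1330 to 1350 CPM in control medium to 1100 to 1180 in E8-cSGcm, 1080 to 1100 in E8-cDRGcm and 994 to 1030 in E15.5-mSGcm, and that of 6 fibroblast or mesenchymal markers was 158 to 175, 212 to 223, 194 to 200 and 162 to 174 CPM in the same order. The 7 noradrenergic markers did not move together. The largest, HAND2, had mean levels of 726, 705, 731 and 521 CPM in that order of media, little changed in the chick media. DBH had 37.5, 17.3, 9.62 and 51.8 CPM. It was thus lower in the chick media and higher in E15.5-mSGcm (log2 fold change 0.47, under 1.5-fold), where TH fell from 8.97 to 1.09 CPM. The fibroblast or mesenchymal sum hides opposite changes as well. In E15.5-mSGcm, the medium in which RARB and CRABP1 were called, PDGFRA (log2 fold change 3.65), DCN (2.30), COL1A2 (2.01) and LUM (0.93) rose and COL1A1 (-1.82) fell, 5 of the 6 markers called, with mean levels in control and E15.5-mSGcm of 0.798 and 9.83 CPM for PDGFRA and 106 and 30.2 CPM for COL1A1. In the chick media 1 of the 6 was called, DCN, lower in E8-cDRGcm (-0.69). The part of these markers in the results below was not tested.

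Calls required both an adjusted p below 0.05 and a change of 1.5-fold or more in the edgeR quasi-likelihood test, with Benjamini-Hochberg adjustment over 16680 tested genes. CYP26A1 and CYP26B1 had too few reads to be tested, which left 7 members. In E8-cSGcm, DHRS3 and CRABP2 were called higher than in control medium, 2 of the 7, against a background of 8.59% of all tested genes called (4.73% higher and 3.86% lower). In E8-cDRGcm only DHRS3, 1 of the 7, was called, also higher, against 20.7% of all (9.81% higher and 10.9% lower). In E15.5-mSGcm 2 of the 7 were called, RARB higher and CRABP1 lower, against 13.9% of all (6.65% higher and 7.27% lower). By adjusted p alone the members numbered 4, 5 and 5 in that order of media, against 31.3%, 49.5% and 37.8% of all tested genes. By the adjusted p of DESeq2 the members numbered 3, 3 and 4. The shares of all tested genes given here are from edgeR and are no background for DESeq2 counts, here or below. The libraries did not overlap with control medium for 6, 6 and 5 of the 7, against 63.6%, 73.5% and 68.3% of all. The median log2 fold change of the 7 was 0.28, 0.17 and -0.27, and that of all tested genes 0.01, 0.01 and -0.02. With 7 genes these shares are not set apart from the background, and each gene is described singly. The comparisons share their control libraries. In bulk RNA, fewer cells that express a gene and less of its RNA per cell cannot be told apart.

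The receptor RARB carries in 1 of its promoters the best known response element of the pathway, a direct repeat of the receptor half-site with a 5-base spacer (DR5), and CYP26A1 carries another. Both are shown as sequences only, since CYP26A1 had too few reads to be tested and the 2 genes cannot be compared across the media. The sequences were taken from RefSeq promoter windows on GRCh38.p14 and are written 5′ to 3′ on the strand of the gene, with the half-sites in capitals.
RARB, chr3:25428204-25428232, plus strand: gggtagGGTTCAccgaaAGTTCActcgca
CYP26A1, chr10:93073797-93073825, plus strand: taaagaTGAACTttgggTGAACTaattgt
In CYP26A1 the repeat reads on the opposite strand, from 90 to 74 bases before the transcription start used for the window. In RARB it lies from 53 to 37 bases before the start used. The stretch shown for RARB is also part of 3 annotated transcripts, and that for CYP26A1 of 1. Each is upstream of the start used for its window, and not of every annotated start of its gene. The half-site searched was AGGTCA with its variants AGTTCA (a common form), GGGTCA (with G first) and also GGTTCA, as direct repeats with 1, 2 or 5 bases between them, on both strands of the 250 bases before each start. Such a DR5 was found in 0.074% of all 35116 windows, and any of the 3 repeats in 0.202%. Of the 18 windows of the 9 members, the other 16 held none of these direct repeats. A match is a description of the sequence, and no binding was measured. Counts per gene do not tell apart the promoters or isoforms of RARB.

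RARB (ENSG00000077092, chr3:24829321-25597932 on GRCh38.p14, as for the positions that follow) was higher in the mouse medium. It had 300 and 370 reads in control medium and 403 and 502 in the smaller E15.5-mSGcm libraries. On the normalized scale this was 22.9 and 24.3 CPM in control medium, 28.8 and 32.0 in E8-cSGcm, 23.5 and 21.5 in E8-cDRGcm, and 51.6 and 57.3 in E15.5-mSGcm. Both E15.5-mSGcm libraries lay above all others, and the E8-cDRGcm libraries overlapped the controls. The rise in E15.5-mSGcm was 2.31-fold (log2 fold change 1.21, standard error 0.0915, adjusted p = 2.02e-13). In E8-cSGcm the level was 1.29-fold that of control medium, past the adjusted p but under the fold change required (log2 fold change 0.36, standard error 0.093, adjusted p = 0.00246). Without E8-cSGcm replicate 2 that value was 0.28 and no longer passed (adjusted p = 0.0667). In E8-cDRGcm the 95% interval of the log2 fold change ran from -0.27 to 0.12.

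**Figure D1:**
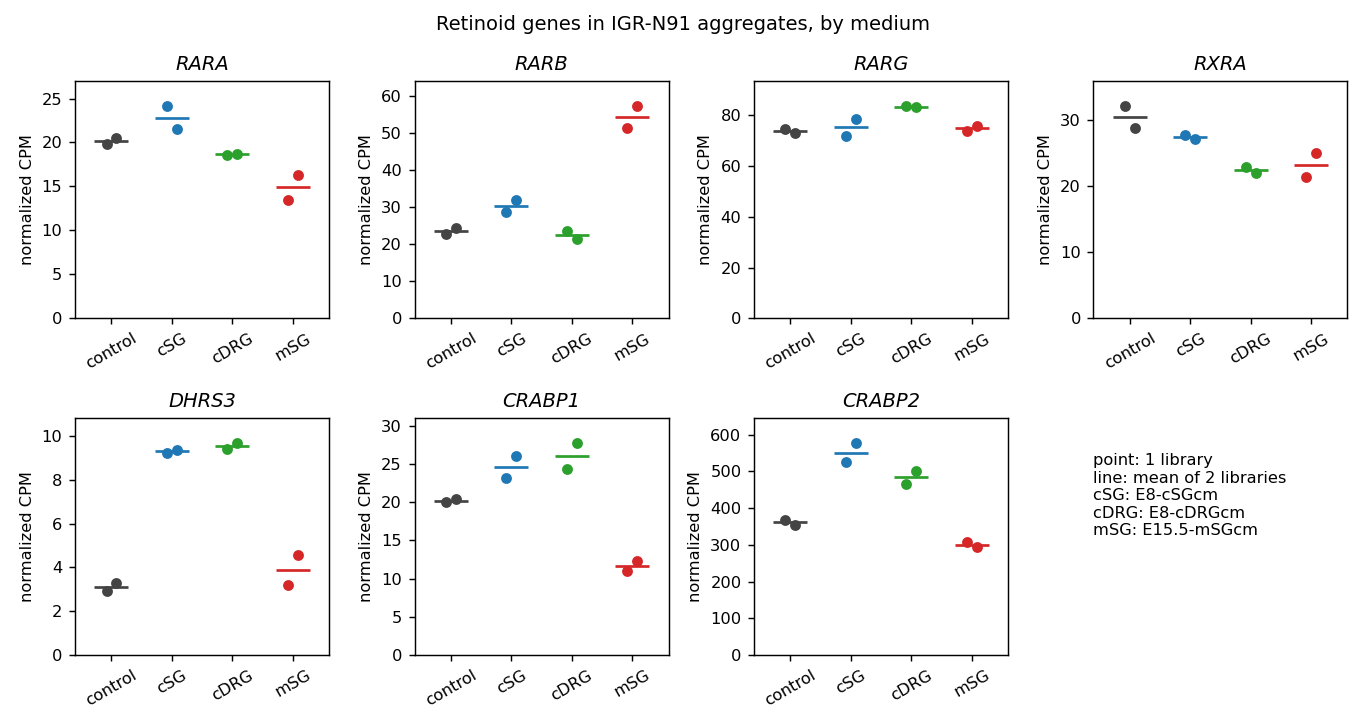
Normalized CPM (vertical axis, linear from 0) of the 7 tested retinoid genes in each library, by medium. Points are libraries and lines are means of 2. DHRS3 sits at 9.22 to 9.67 CPM in the chick media against 2.91 and 3.29 in control medium, and RARB at 51.6 and 57.3 CPM in E15.5-mSGcm.

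RARG and RARA, the other receptors that bind retinoic acid, did not follow RARB in E15.5-mSGcm. RARG (ENSG00000172819, chr12:53210569-53232209) was the most abundant RAR. In control medium its mean level was 73.8 ± 1.30 CPM (SD over 2 libraries), compared with 75.3 ± 4.80, 83.3 ± 0.281 and 75.0 ± 1.28 in E8-cSGcm, E8-cDRGcm and E15.5-mSGcm. The 95% intervals of its log2 fold changes ran from -0.10 to 0.16, 0.05 to 0.30 and -0.11 to 0.16 in that order, so that a change of 1.5-fold lay outside each of them. RARA (ENSG00000131759, chr17:40309180-40357643) had 19.8 and 20.5 CPM in control medium, 24.1 and 21.5 in E8-cSGcm, 18.6 and 18.7 in E8-cDRGcm, and 13.5 and 16.3 in E15.5-mSGcm. Both E15.5-mSGcm libraries were the lowest, at a log2 fold change of -0.43 (standard error 0.122, adjusted p = 0.00487) that missed the fold change required. Without E15.5-mSGcm replicate 2 it was -0.59 and passed, and without replicate 1 it was -0.31 and missed the adjusted p as well (0.114), as it did with DESeq2 (adjusted p = 0.056). Genes on the opposite strand overlap RARA exons, but none of them had more than 6 reads in a library.

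Within a library, the reads of the 3 RARs can be compared without any normalization. RARB made up 19.5% and 20.7% of RAR reads in control medium, 23.1% and 24.2% in E8-cSGcm, 18.7% and 17.4% in E8-cDRGcm, and 37.1% and 38.3% in E15.5-mSGcm. RARG remained the largest share everywhere, from 50.7% to 67.4%. RARA held 16.9% and 17.4% in control medium and 9.67% and 10.9% in E15.5-mSGcm. Per kilobase of exon, which allows levels of different genes to be compared, mean RARG was 14.4 CPM, RARA 4.25 and RARB 2.50 in control medium, and in E15.5-mSGcm RARB (5.77 CPM per kilobase) stood above RARA (3.14). These figures use the length of all annotated exons and would shift with the isoforms in use.

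**Figure D2:**
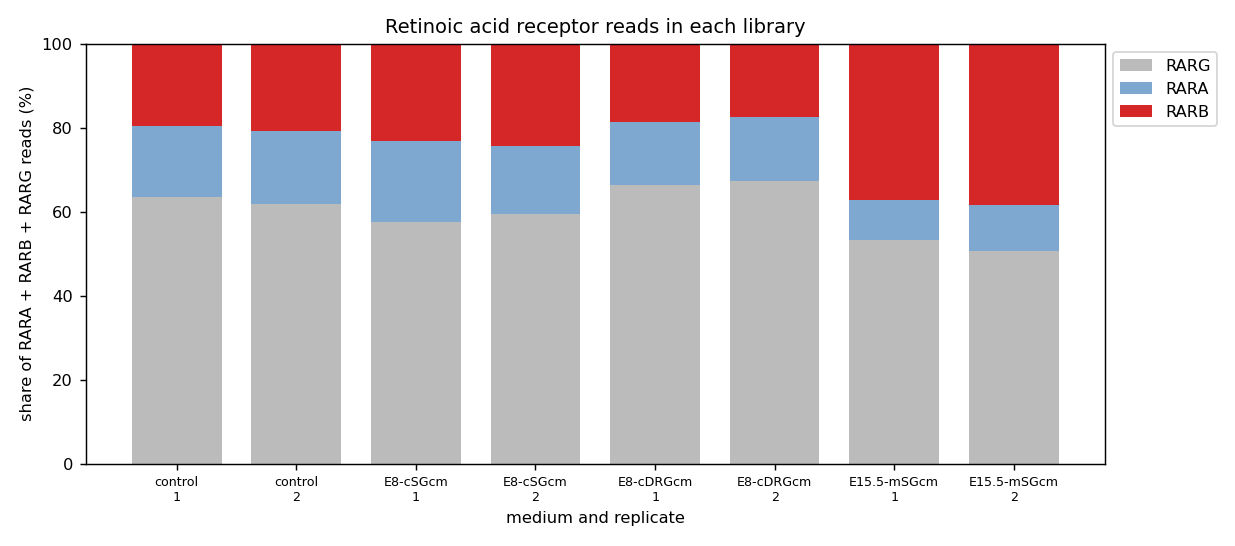
Share (%) of RARG, RARA and RARB in the summed reads of the 3 genes, 1 bar per library. RARB reaches 37.1% and 38.3% in the E15.5-mSGcm libraries and lies between 17.4% and 24.2% in the other 6.

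RXRA (ENSG00000186350, chr9:134326455-134440585), the RXR partner of the RARs, was below control medium in every conditioned library. Levels were 32.1 and 28.9 CPM in control medium, 27.8 and 27.1 in E8-cSGcm, 23.0 and 22.0 in E8-cDRGcm, and 21.4 and 25.1 in E15.5-mSGcm. The log2 fold changes of -0.44 in E8-cDRGcm (standard error 0.0944, adjusted p = 1.94e-04) and -0.38 in E15.5-mSGcm (standard error 0.103, adjusted p = 0.00313) passed the adjusted p without reaching 1.5-fold, and that of -0.15 in E8-cSGcm did not pass (adjusted p = 0.225). The E15.5-mSGcm value was -0.28 without its replicate 1 (adjusted p = 0.088). Of the other RXRs, RXRG had 18 and 17 reads in control medium and 4 and 6 in E15.5-mSGcm, and no medium was called against control medium for it (log2 fold change -1.03, adjusted p = 0.113, in E15.5-mSGcm). RXRB was listed at 0 in all 8 libraries.

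DHRS3 (ENSG00000162496, chr1:12567910-12618210) rose in both chick media, and these were the largest changes of a tested member against control medium. It had 38 and 50 reads in control medium, 115 and 134 in E8-cSGcm, 126 and 132 in E8-cDRGcm, and 25 and 40 in E15.5-mSGcm, which is 2.91 and 3.29, 9.22 and 9.38, 9.42 and 9.67, and 3.20 and 4.57 CPM. The 4 chick libraries lay well apart from the other 4, and E15.5-mSGcm overlapped control medium. The rise was 2.99-fold in E8-cSGcm (log2 fold change 1.58, standard error 0.189, adjusted p = 2.23e-08) and 3.06-fold in E8-cDRGcm (1.62, standard error 0.187, adjusted p = 3.45e-09). In E15.5-mSGcm the log2 fold change was 0.33 with a 95% interval of -0.17 to 0.84, wide enough to include 1.5-fold, since this gene had at most 40 reads in those libraries.

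The CYP26 hydroxylases, which clear retinoic acid and are among its most sensitive targets, had almost no reads. CYP26A1 (ENSG00000095596, chr10:93073475-93077885) had 1 read in E8-cDRGcm replicate 2, 1 in E15.5-mSGcm replicate 2 and none in the other 6 libraries. CYP26B1 (ENSG00000003137, chr2:72129238-72147862) had 2 and 1 reads in control medium, none in E8-cSGcm, 1 and 1 in E8-cDRGcm, and 0 and 2 in E15.5-mSGcm. No library reached the floor of 3 reads for either gene, and a difference between media was not detectable at this depth. CYP26C1, the remaining member of that family, had no read.

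CRABP2 and CRABP1, the cytosolic carriers of retinoic acid, were on the high side of control medium in the chick media and on the low side in the mouse medium. CRABP2 (ENSG00000143320, chr1:156699606-156705784), which hands retinoic acid to RARs, was the most abundant member with a level of 334 CPM per kilobase in control medium. It had 368 and 355 CPM in control medium, 526 and 577 in E8-cSGcm, 467 and 501 in E8-cDRGcm, and 307 and 294 in E15.5-mSGcm. No 2 groups overlapped. The rise in E8-cSGcm was 1.53-fold (log2 fold change 0.61, standard error 0.0510, adjusted p = 5.13e-12), just above the criterion, and was 0.58 without control replicate 2 and 0.54 without E8-cSGcm replicate 2, both below it at adjusted p of 1.58e-08 and 1.43e-10. The log2 fold changes of 0.42 in E8-cDRGcm (standard error 0.0510, adjusted p = 9.07e-09) and -0.27 in E15.5-mSGcm (standard error 0.0529, adjusted p = 1.07e-04) passed the adjusted p only.

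CRABP1 (ENSG00000166426, chr15:78340353-78348225), a carrier linked to the turnover of retinoic acid, had 20.0 and 20.4 CPM in control medium, 23.2 and 26.0 in E8-cSGcm, 24.3 and 27.7 in E8-cDRGcm, and 11.0 and 12.3 in E15.5-mSGcm. It fell 1.73-fold in E15.5-mSGcm (log2 fold change -0.79, standard error 0.129, adjusted p = 5.74e-06). The values in E8-cSGcm (log2 fold change 0.28, standard error 0.101, adjusted p = 0.0285) and E8-cDRGcm (0.36, standard error 0.100, adjusted p = 0.00263) stayed under 1.5-fold, and their adjusted p did not hold in every alternative. In E8-cSGcm the value fell to 0.07 with libraries thinned to equal totals (adjusted p = 0.733), and missed the threshold with DESeq2 (adjusted p = 0.22), without E8-cSGcm replicate 2 (0.20, adjusted p = 0.28) and without either control library (adjusted p = 0.117 and 0.107). In E8-cDRGcm it missed with DESeq2 (adjusted p = 0.0628), with thinning (0.25, adjusted p = 0.0872) and without E8-cDRGcm replicate 2 (0.27, adjusted p = 0.0794). Reads of CRABP2 outnumbered those of CRABP1 by 18.4 and 17.4 times in the control libraries, 22.7 and 22.2 times in E8-cSGcm, 19.2 and 18.1 times in E8-cDRGcm and 27.8 and 23.8 times in E15.5-mSGcm, so that this ratio was highest in both E15.5-mSGcm libraries. A gene on the opposite strand overlaps 440 bases of CRABP1 exons and had at most 2 reads in a library.

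**Figure D3:**
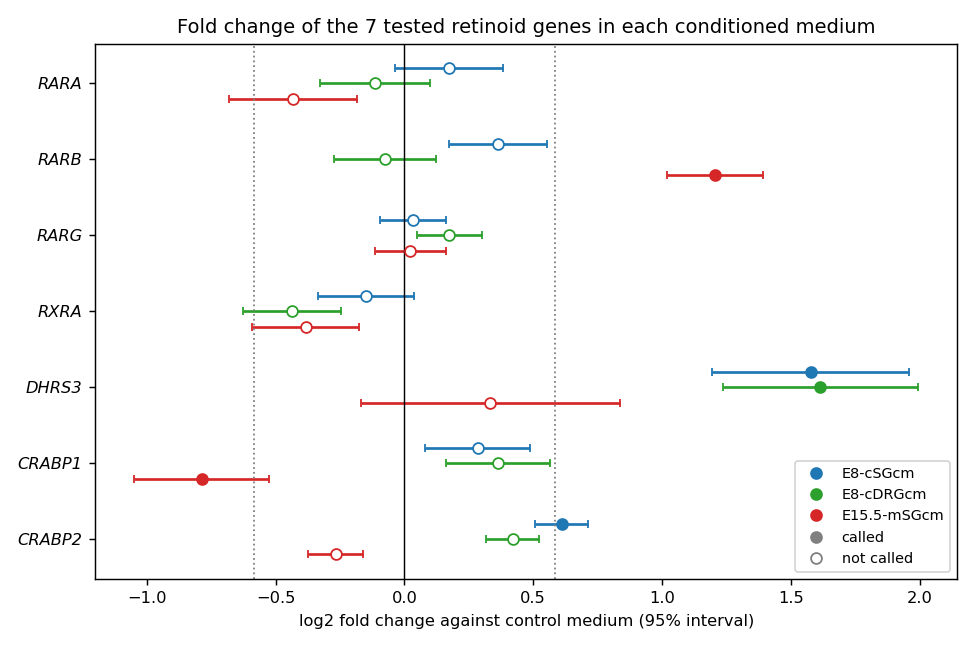
Log2 fold change against control medium (horizontal axis) with its 95% interval for 7 retinoid genes in 3 media. Filled points were called, open points were not, and dotted lines mark a fold change of 1.5. RARB stands at 1.21 in E15.5-mSGcm, and DHRS3 at 1.58 and 1.62 in the chick media.

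The media were then compared with each other. Between the 2 chick media edgeR called 0 of the 7 members, against 7.49% of all tested genes. Of all, 2.62% were called higher and 4.87% lower in E8-cDRGcm. An unadjusted p below 0.05 was found for 5 of the 7, and for at least 30.2% of all, the share that passed the adjusted p. DESeq2 also called 0 of the 7 members. By adjusted p alone 4 of the 7 passed (2 with DESeq2), as did 30.2% of all, and the libraries did not overlap for 6 of the 7, as for 62.3% of all. DHRS3 differed between E8-cDRGcm and E8-cSGcm by a log2 fold change of 0.04, with a 95% interval of -0.28 to 0.35. RARB was lower in E8-cDRGcm than in E8-cSGcm by a log2 fold change of -0.44 (standard error 0.0945, adjusted p = 4.12e-04), short of 1.5-fold. The other members past the adjusted p in edgeR were also lower and short of 1.5-fold. They were RARA (-0.29, adjusted p = 0.034), RXRA (-0.29, adjusted p = 0.022) and CRABP2 (-0.19, adjusted p = 0.0037). Between E15.5-mSGcm and E8-cSGcm 5 of 7 members were called, against 22.3% of all tested genes (10.2% higher and 12.1% lower), with RARB higher in the mouse medium and RARA, DHRS3, CRABP1 and CRABP2 lower. Between E15.5-mSGcm and E8-cDRGcm 4 of 7 were called, against 26.2% of all (13.1% higher and 13.1% lower), with RARB higher and DHRS3, CRABP1 and CRABP2 lower. By adjusted p alone 5 of the 7 passed in each of these comparisons with the mouse medium (5 and 4 with DESeq2), against 49.8% and 52.6% of all, and the libraries did not overlap for 6 of the 7 in each, against 73.5% and 74.9% of all. The 3 comparisons between media share libraries with each other and with those against control medium.

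The order of the media differed between members. For RARB it was E15.5-mSGcm, E8-cSGcm, control medium and E8-cDRGcm, with the last pair overlapping. DHRS3 was highest in E8-cDRGcm and E8-cSGcm, whose libraries did not overlap but lay within 9.22 to 9.67 CPM and did not differ by the test (adjusted p = 0.885), and lowest in E15.5-mSGcm and control medium, which overlapped. CRABP1 was also highest in the chick media, which overlapped, followed by control medium and E15.5-mSGcm, and CRABP2 ran without overlap from E8-cSGcm through E8-cDRGcm and control medium to E15.5-mSGcm. Over the 8 libraries, whose log2 CPM values share library size and medium, the genes with the pattern most like RARB were SLC5A5 (Pearson r 0.993) and SELENOK (0.992), and those most like DHRS3 were CPSF1 (0.996) and ATCAY (0.991). CRABP2 was closest to ARRB2 (0.994) and NCBP2AS2 (0.990), and CRABP1 to TUBG2 (0.996) and EEF1A2 (0.994), among 14813 genes compared. Such a correlation does not measure the size of a change. In control medium, E8-cSGcm, E8-cDRGcm and E15.5-mSGcm, CPSF1 had mean levels of 201, 234, 234 and 205 CPM. DHRS3 had 3.10, 9.30, 9.55 and 3.89 CPM. SLC5A5 had 1 to 10 reads in the libraries of the other 3 groups and 41 and 58 in E15.5-mSGcm, so that it reached the required mean of 1 CPM, and its likeness to RARB, through that group.

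Around the members, 79 further genes of retinoid uptake, metabolism, receptor coregulation and response were listed, of which 52 were tested. In E8-cSGcm 2 of the 52 were called higher and 4 lower, in E8-cDRGcm 4 and 7, and in E15.5-mSGcm 5 and 9. Their median log2 fold changes were -0.12, -0.10 and 0.02, beside 0.01, 0.01 and -0.02 over all tested genes. The called shares over all tested genes, given above, were 8.59%, 20.7% and 13.9%. The calls in E8-cDRGcm, 11 of 52, were close to that background, and those in E8-cSGcm and E15.5-mSGcm lay above theirs. The list was not tested as a set. The shares over all tested genes also stand behind the smaller lists that follow, which hold too few genes to be set apart from them. The 27 genes not tested had at most 6 reads in a library.

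Of 4 tested genes of retinol uptake and storage, 1 was called higher in E8-cSGcm and 2 lower in E15.5-mSGcm, against 8.59% and 13.9% of all tested genes. STRA6, the receptor through which retinol enters cells, had 61.2 and 64.8 CPM in control medium and rose to 109 and 110 in E8-cSGcm (log2 fold change 0.80, adjusted p = 1.23e-12) and had 73.5 ± 0.177 in E8-cDRGcm and 50.2 ± 4.32 in E15.5-mSGcm. SCARB1, a lipoprotein receptor that also takes up carotenoids, fell in E15.5-mSGcm (log2 fold change -0.68, adjusted p = 7.97e-09).

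Of 9 tested dehydrogenases that act on retinol or retinal, 1, 3 and 2 were called in E8-cSGcm, E8-cDRGcm and E15.5-mSGcm, against 8.59%, 20.7% and 13.9% of all tested genes. RDH10, which oxidizes retinol to retinal and so works against DHRS3, had 8.60 ± 0.915 CPM in control medium and 11.9 ± 2.03 in E8-cSGcm, and rose to 16.5 ± 0.923 in E8-cDRGcm and 18.8 ± 1.21 in E15.5-mSGcm (log2 fold changes 0.95 and 1.14, adjusted p = 2.27e-07 and 4.36e-08). ALDH1A3, which makes retinoic acid from retinal, fell from 17.2 ± 1.37 CPM to 9.16 ± 0.770 in E8-cSGcm and 5.18 ± 0.238 in E8-cDRGcm (log2 fold changes -0.92 and -1.73, adjusted p = 7.07e-07 and 1.19e-12), with 16.6 ± 1.52 in E15.5-mSGcm. ALDH1A2, of the same function, had 4.66 ± 0.754 CPM in control medium and fell to 2.38 ± 0.620 in E15.5-mSGcm (log2 fold change -0.99, adjusted p = 0.00318), where it had 22 and 17 reads. RDH12 was called lower in E8-cDRGcm with 3 and 4 reads against 13 and 13.

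Among 24 tested genes listed as induced by retinoic acid, 1 was called higher and 2 lower in E8-cSGcm, 3 and 5 in E8-cDRGcm, and 2 and 6 in E15.5-mSGcm, against 8.59%, 20.7% and 13.9% of all tested genes called in either direction. Many of them also answer to other signals. RET, the GDNF family receptor, had 5587 and 6088 reads in control medium and fell in E15.5-mSGcm (log2 fold change -0.83, adjusted p = 9.23e-16). RAI14 rose in E8-cSGcm and E8-cDRGcm (0.64 and 0.92, adjusted p = 1.07e-08 and 2.58e-13), and HOXD4 in E8-cDRGcm (1.04, adjusted p = 1.60e-04). TNFAIP2, also a target of inflammatory signals, fell in E8-cDRGcm (-0.60, adjusted p = 0.0351) and rose in E15.5-mSGcm (2.27, adjusted p = 5.97e-13), where BHLHE40 rose too (1.39, adjusted p = 1.84e-13). CDX1 fell in E8-cDRGcm and E15.5-mSGcm (-1.33 and -1.06, adjusted p = 0.00152 and 0.0244), with 4 and 19 reads in the latter. ABCA1, a cholesterol transporter, fell in both chick media (-1.13 and -0.87, adjusted p = 7.98e-14 and 7.06e-12), and DUSP6, a feedback phosphatase of the ERK pathway, in E8-cSGcm and E15.5-mSGcm (-0.71 and -0.95, adjusted p = 8.95e-10 and 5.18e-12). TBX1 (-1.19, adjusted p = 7.95e-05) and CYP1B1 (-0.97, adjusted p = 0.0269) fell in E15.5-mSGcm. TGM2 was called lower in E8-cDRGcm with 3 and 3 reads against 12 and 9.

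Of 13 tested coregulators, 1 was called lower in E8-cSGcm and 2 higher in E15.5-mSGcm, near the 8.59% and 13.9% of all tested genes. In E8-cDRGcm edgeR called 0 of them, against 20.7% of all tested genes. An unadjusted p below 0.05 was found there for 6, and for at least 49.5% of all tested genes, the share that passed the adjusted p. The 2 coregulators called in E15.5-mSGcm included PNRC1 (log2 fold change 0.66, adjusted p = 2.08e-09), a coactivator of nuclear receptors. FABP5, the carrier that delivers retinoic acid to PPARD, was not called in any medium against control medium, with log2 fold changes of -0.23, -0.43 and -0.38. The values in E8-cDRGcm and E15.5-mSGcm passed the adjusted p (0.00528 and 0.0326) without reaching 1.5-fold.

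**Figure D4:**
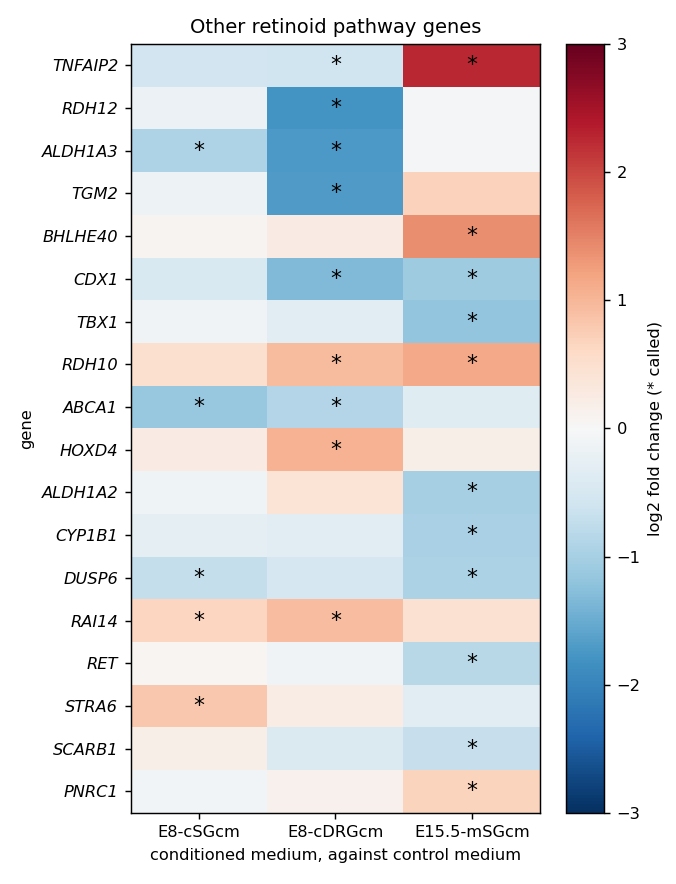
Log2 fold change against control medium (color scale) of 18 retinoid pathway genes outside the 9 members, each called in at least 1 medium. Stars mark calls. TNFAIP2 reaches 2.27 in E15.5-mSGcm and ALDH1A3 -1.73 in E8-cDRGcm.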

How the data were processed

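The 9 genes, the wider gene lists and the tests were chosen with earlier results of these data known. Reads were demultiplexed (Bcl2fastq 2.17.1.14), trimmed (CutAdapt 1.9.1), mapped (TopHat 2.1.0) and counted per gene (HTSeq-count 0.11.3), and the authors deposited them as raw counts, without normalization. The genome build is hg19 in the methods of the paper and hg38 in the submitters' processing notes. The strand option and annotation release are not given in the sources used here. Symbols came from GENCODE 44 (58611 identifiers matched), and promoter windows, found for all 9 genes, from RefSeq (GRCh38.p14).

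Counts of the 8 libraries were fitted in 1 model of group means with edgeR 4.0.16 (R 4.3.3; filterByExpr, TMM, robust quasi-likelihood test). Adjusted p in the text are from this fit unless another is named. Alternatives were DESeq2 1.42.0, RLE factors, a fit of the 4 libraries compared by themselves, filters at 1 count in total or 10 in every library, no fold criterion, thinning to 7930765 counts, the replicate number as a block, and each library left out. Steps were tested on simulated data. Replicates differed by more than counting error (mean chi-square per gene 1.77 to 3.78). The text names, outside the 9 genes, at most 20 called pathway genes by largest change (18 shown, since some genes are not reported here), and the 2 genes most correlated with each called member at a mean of at least 1 CPM. RXRB, RXRG, CYP26C1 and FABP5, which this rule does not cover, were named after their values were seen. Figures were drawn with matplotlib 3.10.9.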

Additional observations from a re-analysis of the deposited data

Results flagged for a closer look

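The effects of the media on 5 genes differed when the media were tested against each other in the same edgeR model (adjusted p under 0.05 and at least 1.5-fold). Between E15.5-mSGcm and E8-cSGcm, the log2 fold change was 0.84 for RARB, -0.60 for RARA, -1.24 for DHRS3, -1.07 for CRABP1 and -0.88 for CRABP2. Between E15.5-mSGcm and E8-cDRGcm, it was 1.28 for RARB, -1.28 for DHRS3, -1.15 for CRABP1 and -0.69 for CRABP2. For each of these 9 differences both libraries of one medium lay beyond both of the other, as was so for 73.5% and 74.9% of all tested genes in these comparisons. Since the 9 were picked by their calls on the same values, this adds no support to them. The RARA difference rested on single libraries, as it was -0.54 without E8-cSGcm replicate 1 and -0.49 without E15.5-mSGcm replicate 1, both under 1.5-fold.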

How the results depend on the processing

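With DESeq2 and with the replicate block, all 42 log2 fold changes of the 7 genes over 6 comparisons kept their direction and call. Of the 28 values with an adjusted p below 0.05 in edgeR, whatever their fold change, 7 lost it with DESeq2, 3 with thinning and 0 with the block. Same-numbered libraries of different groups did not deviate together (r of -0.0437 to 0.042 over genes in the 6 pairs of groups), so the numbers were not taken to pair the samples. With the block, the genes called numbered 1414 in E8-cSGcm, 3444 in E8-cDRGcm and 2288 in E15.5-mSGcm against control medium. DESeq2 called 851 genes in E8-cSGcm (1433 with edgeR) and 696 between the chick media (1249 with edgeR). The cause was not tested.

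Without the fold change criterion, by construction, more genes were called: 5213, 8261 and 6305 in E8-cSGcm, E8-cDRGcm and E15.5-mSGcm against control medium, with 4, 5 and 5 members. Between the chick media it was 5037 genes and 4 members, and 8304 and 8767 genes for E15.5-mSGcm against E8-cSGcm and E8-cDRGcm. With each library left out, 1 or 2 members were called in E8-cSGcm and 2 or 3 in E15.5-mSGcm against control medium.

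Signs turned only for values near 0. With genes filtered at 1 count in total, RARG in E15.5-mSGcm against control medium was -0.0319. It ran from -0.0034 (without control replicate 2) through -0.0019 (without E15.5-mSGcm replicate 2) to 0.0339 with libraries left out. Against E8-cSGcm it was 0.0109 with RLE, 0.0003 with 10 counts in every library and 0.0035 with only the libraries compared, and ran from -0.0828 to 0.0512 with libraries left out. In E8-cSGcm against control medium RARG ran from -0.0353 to 0.097 with libraries left out. Between the chick media DHRS3 was -0.0076 when thinned and CRABP1 ran from -0.0185 to 0.1701 with libraries left out. RXRA in E15.5-mSGcm against E8-cDRGcm was -0.0058 under the loosest filter and ran from -0.0805 to 0.1524 with libraries left out. Depth limits CYP26A1 and CYP26B1, both under 3 reads everywhere.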

Other observations

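RXRB, listed at 0 in all 8 libraries, lies on chromosome 6 in the region of the major histocompatibility complex. Of 144 protein-coding genes between GABBR1 and RING1 in that region, 139 (96.5%) had no read in any library, against 4118 of 19837 protein-coding genes (20.8%) in the whole table. A 0 in this region can therefore not be read as absence of the transcript, and RXRB is not counted here among the silent retinoid genes.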
